A study of Mus musculus with 12 samples.

Results

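The response of control brown adipose tissue to 1 week in the cold was read from 6 of the 12 RNA-seq libraries of the series: 3 from control mice kept at room temperature and 3 from control mice kept at 4 degrees. The genes described are those of the deposited count table that passed a filter on low counts, 15265 of 24197, and each was compared between the 3 cold and the 3 room temperature libraries. All 6 libraries came from mice of 8 to 10 weeks with the genotype Adipoq-Cre-; Ebf2 fl/fl, so the controls carried the same floxed Ebf2 alleles as the mutants and differed from them in lacking the Adipoq-Cre recombinase, which is expressed in adipocytes. The mutant libraries, Adipoq-Cre+; Ebf2 fl/fl, enter below only where the 2 cold responses were compared. Whether replicates of a group came from different mice is not stated in the labels, and the p-values therefore reflect only sample-to-sample spread, part or all of which could be technical.

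Brown adipose tissue burns fatty acids and glucose to make heat. Noradrenaline from sympathetic nerves acts on the beta-3 adrenergic receptor of brown adipocytes, raises cyclic AMP, and releases fatty acids from lipid droplets, and these open the uncoupling protein UCP1 in the inner mitochondrial membrane so that respiration yields heat in place of ATP. Days of cold also enlarge the capacity of the tissue: mitochondria, blood vessels and the enzymes that take up and rebuild lipid are known to increase, and synthesis and oxidation of fatty acids are known to run side by side.

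The 6 libraries held between 25835650 and 33597989 gene counts, and 3 counts corresponded to between 0.0764 and 0.114 CPM (counts scaled to a common library size) over all 12 libraries. Levels below are CPM with the library size scaled by the trimmed mean of M-values (TMM), with means ± SD over 3 libraries, and differences are log2 fold changes, cold minus room temperature, ± SE. A gene was called when the p-value of edgeR's quasi-likelihood test, adjusted over all 15265 genes by the Benjamini-Hochberg method, was under 0.05. Because these are samples of whole tissue, fewer cells of a type and less RNA per cell cannot be told apart. Adipocyte genes were abundant in all 6 libraries: Fabp4, a fatty acid binding protein, ran from 5377 to 9853 CPM, Plin1, a coat protein of lipid droplets, from 969 to 1364 CPM, and Ucp1 from 2684 to 12212 CPM. Transcripts of 30 skeletal muscle marker genes were also present and uneven. They took 3.5%, 0.013% and 2.47% of the counts of room temperature libraries 1, 2 and 3, and 0.294%, 0.027% and 1.13% of those of cold libraries 1, 2 and 3. Lens markers took 0.0457% to 0.115% of counts at room temperature and 0.0286% to 0.0416% in the cold.

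Of the 15265 genes tested, 1010 were called (6.62%), 658 of them higher in the cold (4.31%) and 352 lower (2.31%). The change exceeded 1 on the log2 scale for 278 genes that rose and 130 genes that fell, while the median over all genes tested was -0.013. In none of the 1010 did the 3 cold and the 3 room temperature libraries overlap. Groups that did not overlap were common without a call: all 3 cold libraries were above all 3 room temperature libraries for 2883 genes (18.9%) and below them for 2193 genes (14.4%). An unadjusted p under 0.05 was found for 3609 genes.

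**Figure D1:**
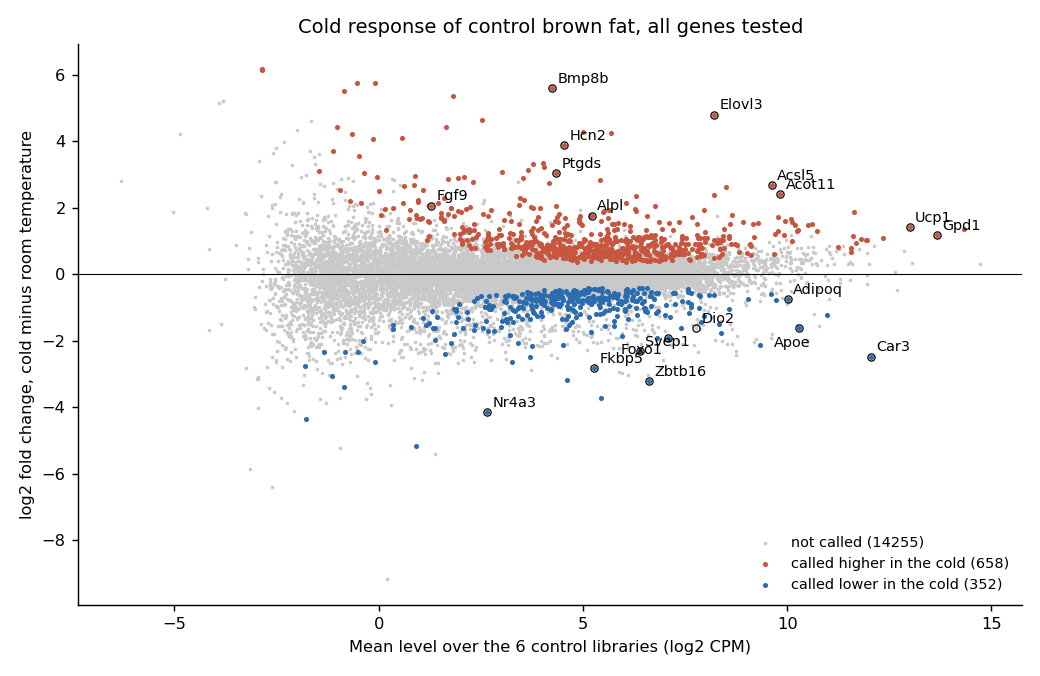
Log2 fold change, cold minus room temperature (vertical axis), against the mean level over the 6 control libraries in log2 CPM (horizontal axis), with 1 point per gene tested. Red points are the 658 genes called higher in the cold, blue points the 352 called lower, and grey points the other genes; named genes are circled, among them Elovl3 and Bmp8b at the top and Nr4a3 and Zbtb16 below 0.

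How many genes were called rested on single libraries. Leaving out room temperature library 1, 2 or 3 gave 971, 616 and 396 calls, and leaving out cold library 1, 2 or 3 gave 414, 324 and 313. With each of the 12 libraries of the fit left out in turn, 253 genes were called every time, 192 higher and 61 lower, and the genes below whose call is said to have held in all 12 such fits belong to them. Without the 4 libraries richest in muscle transcripts (room temperature libraries 1 and 3, cold library 3 and a mutant library), 1 room temperature and 2 cold control libraries were left, and 13 genes were called, 5 higher and 8 lower. The share of calls that were higher in the cold was 65.1% with all libraries and 55% without room temperature library 1, 54.5% by DESeq2 and 56.7% by limma-voom.

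**Figure D2:**
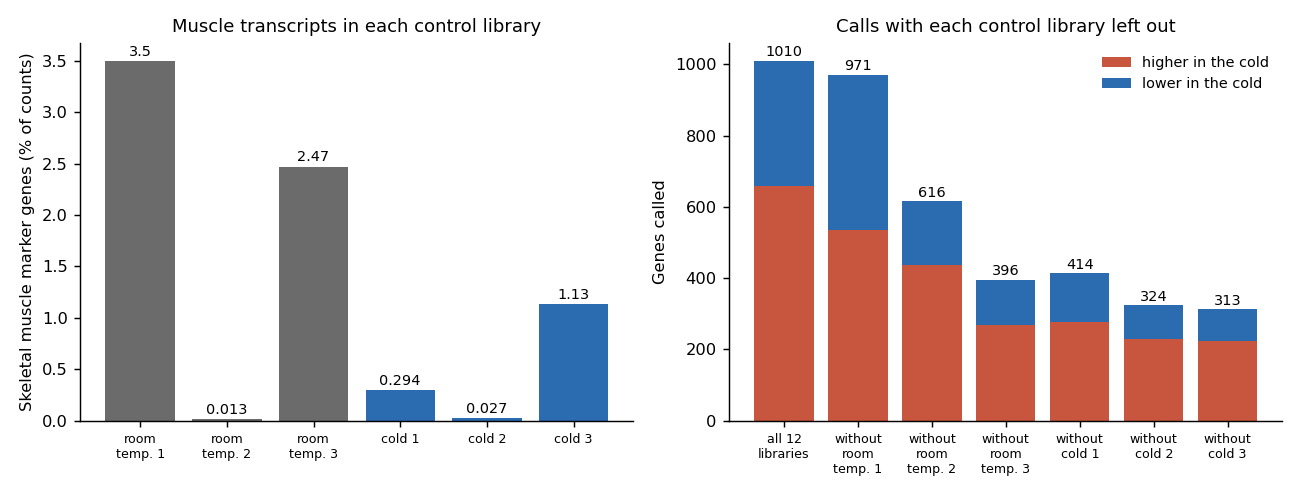
Left, the share of counts in percent taken by 30 skeletal muscle marker genes in each control library, from 0.013% to 3.5%. Right, the number of genes called with all 12 libraries (1010) and with each control library left out, from 971 without room temperature library 1 to 313 without cold library 3, with genes higher in the cold in red and genes lower in blue.

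Of 35 genes of the thermogenic programme 6 rose and 1 fell: Ucp1, 5 further effectors that rose, and 1 regulator that fell. Ucp1 stood at 2684, 5617 and 5059 CPM at room temperature and at 12212, 11505 and 12090 CPM in the cold. All 3 cold libraries were above all 3 at room temperature, and room temperature library 1 was the lowest. The fold change was 1.42 ± 0.39 on the log2 scale, or 2.68-fold, with an adjusted p of 0.0492. That call was lost without any 1 of the 6 control libraries, mutant room temperature library 3 or mutant cold library 1 or 2, with an adjusted p of up to 0.132 without cold library 3, and with replicate number as a block the adjusted p was 0.0722. Among 21 other effector genes, 5 rose and none fell, against 4.31% and 2.31% of all genes, with a median log2 fold change of 0.711; the lowest count of rises with a library left out was 2, without cold library 2. These 5 were Elovl3, Acot11, Pank1, Letmd1 and Otop1.

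Elovl3, an elongase that makes very long fatty acids, had the smallest p of all genes tested. It stood at 22.7, 13.3 and 25.6 CPM at room temperature and at 637, 525 and 554 CPM in the cold, a rise of 4.80 ± 0.30 on the log2 scale, or 27.9-fold (adjusted p = 3.32e-05). Acot11, a thioesterase that splits acyl-CoA, rose from 231, 434 and 200 CPM to 1450, 1481 and 1642 CPM (2.40 ± 0.29, adjusted p = 0.00147). Both calls held in all 12 fits with a library left out. Pank1, which starts the synthesis of coenzyme A, rose from 392 ± 61.1 to 710 ± 40.1 CPM (adjusted p = 0.0098), a call lost without cold library 2 or 3 (adjusted p up to 0.0599). Letmd1, a protein of the inner mitochondrial membrane, rose from 597 ± 155 to 1354 ± 33.8 CPM (adjusted p = 0.0123), and that call was likewise lost without cold library 2 or 3 (up to 0.0543). Otop1, a proton channel, rose from 244 ± 27.7 to 414 ± 29.8 CPM (adjusted p = 0.0342), and its call was lost without any 1 of the 6 control libraries, mutant room temperature library 2 or 3 or mutant cold library 1 (up to 0.143, without cold library 2). Cidea, a lipid droplet protein used as a brown fat marker, stood at 2617 ± 881 and 2379 ± 297 CPM, and its groups overlapped (-0.14 ± 0.26, adjusted p = 0.783).

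Among 13 regulators, none rose and 1 fell (7.69%, against 2.31% of all genes), with a median of -0.147. The one that fell was Zbtb16, which encodes the transcription factor PLZF: 146, 221 and 163 CPM at room temperature and 20.3, 17 and 19.5 CPM in the cold (-3.22 ± 0.65, adjusted p = 0.021). Its call was lost without room temperature library 2 or 3 or any 1 of the cold libraries, with an adjusted p of up to 0.0881. Ppargc1a, a coactivator of mitochondrial genes, stood at 134, 130 and 176 CPM at room temperature and at 117, 40.9 and 63.8 CPM in the cold, groups that did not overlap but did not pass the test (-0.99 ± 0.33, adjusted p = 0.0982). Prdm16, a determinant of brown fat identity, stood at 34.7, 83.4 and 63.5 CPM and then at 32.6, 30.6 and 34.2 CPM (-0.90 ± 0.28, adjusted p = 0.0792). With replicate number as a block Prdm16 was called, at an adjusted p of 0.0493. Pparg, the master regulator of fat cells, was at 225 ± 24.2 CPM at room temperature and 237 ± 23.1 CPM in the cold (adjusted p = 0.843). Ebf2, whose alleles were floxed but not deleted here, stood at 47.8 ± 16 and 45.4 ± 6.04 CPM (-0.08 ± 0.25, adjusted p = 0.886).

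Dio2, the enzyme that activates thyroid hormone inside brown fat and that acute cold is known to induce, was lower after the week in the cold without passing the test. It stood at 249, 421 and 322 CPM at room temperature and at 181, 89.6 and 50.2 CPM in the cold (-1.63 ± 0.45, adjusted p = 0.0546). Of 9 thyroid hormone genes tested, 1 rose (11.1%, against 4.31% of all genes) and none fell. The riser was Thrsp, a lipogenic gene known to respond to thyroid hormone, at 1948 ± 449 and 4351 ± 400 CPM (adjusted p = 0.0328). The call of Thrsp was lost without room temperature library 2 or 3, any cold library, mutant room temperature library 2 or 3, or mutant cold library 1, with an adjusted p of up to 0.124.

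**Figure D3:**
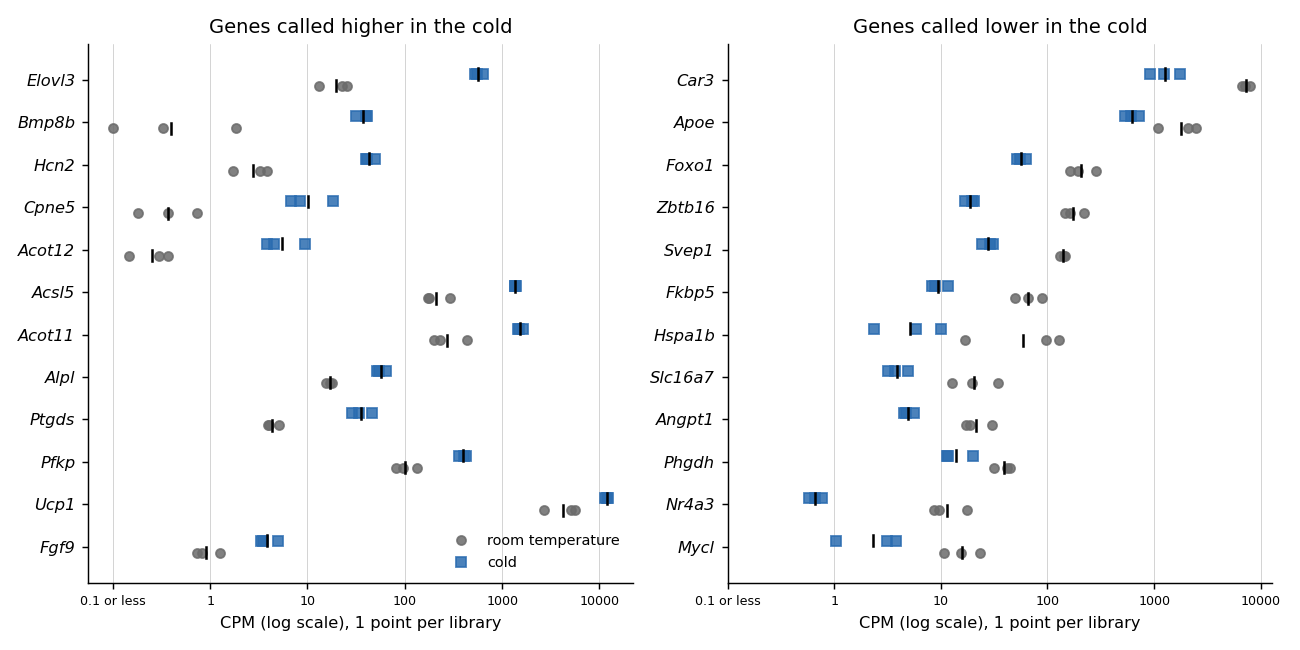
CPM of 24 genes in each of the 6 control libraries on a log axis, room temperature as grey circles and cold as blue squares, with black ticks at the mean of the log values. Left, 12 genes called higher in the cold, such as Elovl3 at 13.3 to 25.6 CPM against 525 to 637 CPM; right, 12 called lower, such as Svep1 at 132 to 145 CPM against 24.4 to 30.7 CPM. In none of the 24 do the groups overlap.

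Of 36 genes of adrenergic and cyclic AMP signalling, 2 rose and 2 fell, which is 5.56% each way against 4.31% and 2.31% of all genes. Adrb3, the beta-3 adrenergic receptor itself, was at 223, 116 and 172 CPM at room temperature and at 327, 411 and 340 CPM in the cold (1.08 ± 0.27, adjusted p = 0.0368); it was the only 1 of 9 receptor genes to be called, and its call was lost without room temperature library 2 or 3, any 1 of the cold libraries, mutant room temperature library 2 or mutant cold library 1 (up to 0.143). Sik1, a kinase induced by cyclic AMP that brakes its signal, rose from 33.6, 43 and 38.2 CPM to 127, 91.8 and 91.8 CPM (1.44 ± 0.18, adjusted p = 0.00152). Nr4a3, an orphan nuclear receptor known as an early target of cyclic AMP, went the other way, from 8.56, 9.66 and 17.7 CPM to 0.585, 0.658 and 0.762 CPM (-4.16 ± 0.54, adjusted p = 0.00213). The calls of Sik1 and Nr4a3 held in all 12 fits with a library left out. Rgs2, which shortens signals through G proteins, fell from 181 ± 27.9 to 77.2 ± 2.32 CPM (adjusted p = 0.0115), a call lost without cold library 3 (0.0532). None of the 8 cyclases and G proteins listed was called (Adcy10, a soluble cyclase that rose and is described below, was not in the list); Gnas, the stimulatory G protein and their most abundant member, stood at 3105 ± 1208 and 4835 ± 102 CPM (adjusted p = 0.2).

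Of 34 secreted factors, 5 rose and 1 fell (14.7% and 2.94%, against 4.31% and 2.31% of all genes), with a median of 0.024. Bmp8b, a factor of the bone morphogenetic protein family, stood at 1.86, 0.327 and 0.0609 CPM at room temperature and at 41.2, 31.3 and 39.7 CPM in the cold (5.59 ± 0.86, 48.1-fold, adjusted p = 0.00727). The lowest of these values is below that of 3 counts, so the size of the rise is poorly fixed. Ptgds, a prostaglandin D synthase, rose from 5.13, 4.07 and 3.96 CPM to 46.6, 33.7 and 28.4 CPM (3.04 ± 0.51, adjusted p = 0.00753). Fgf9, a growth factor, rose from 0.823, 1.27 and 0.731 CPM to 3.51, 4.94 and 3.35 CPM (2.06 ± 0.33, adjusted p = 0.00512). The calls of Bmp8b, Ptgds and Fgf9 held in all 12 fits with a library left out. Fgf21, a hormone of metabolic stress, was at 0.274, 0 and 0 CPM at room temperature and 2.96, 0.856 and 1.37 CPM in the cold (adjusted p = 0.0436). Its call was lost without room temperature library 2 or 3, any cold library, mutant room temperature library 1 or 3, or mutant cold library 1 or 2, with an adjusted p of up to 0.126 without cold library 1. Kng2, a kininogen that may share reads with its near-identical neighbour, rose from 68.4 ± 33.2 to 177 ± 19.2 CPM (adjusted p = 0.0374). Its call was lost without room temperature library 1 or 3, any cold library, mutant room temperature library 2, or mutant cold library 1 or 2 (up to 0.133). Adipoq, the adipokine adiponectin, fell from 1219, 1375 and 1276 CPM to 644, 925 and 737 CPM (-0.75 ± 0.16, adjusted p = 0.0211), a call lost without room temperature library 2 or 3 or cold library 1 or 3 (up to 0.101). Lep, the white fat hormone leptin, spread widely at 65.6 ± 38.9 and 15.8 ± 14.5 CPM and was not called (-2.06 ± 0.86, adjusted p = 0.189).

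Synthesis of fatty acids and triglycerides was among the groups with most calls. Of 46 genes tested, 17 rose and none fell, with a median log2 fold change of 0.536, against 4.31% of all genes called higher and a median of -0.013. With a library left out the count of rises was lowest without cold library 3, at 9, and 9 members were called in all 12 such fits. Over the 8 libraries left without the muscle-rich ones the median of the list was 0.372.

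The list for the steps from citrate to fatty acid had 6 rises of 11 (54.5%, against 4.31% of all genes), with a median of 0.891. It had 2 rises without cold library 3. Only 2 of the 6 were called in all 12 fits, Aacs and Oxsm, and neither acts on the route from citrate itself. Aacs, which turns acetoacetate into a building block for lipid, rose from 216, 158 and 166 CPM to 454, 699 and 698 CPM (1.78 ± 0.22, adjusted p = 0.00147). Oxsm, the condensing enzyme of mitochondrial fatty acid synthesis, rose from 38 ± 2.62 to 56.8 ± 0.696 CPM (0.58 ± 0.10, adjusted p = 0.00631). Both calls held in all 12 fits. Slc25a1, the carrier that exports citrate from mitochondria, rose from 588, 542 and 397 CPM to 1188, 1185 and 1354 CPM (1.29 ± 0.24, adjusted p = 0.0098). Acly, which cleaves that citrate to acetyl-CoA in the cytosol, rose from 1681, 1750 and 651 CPM to 4608, 4655 and 5699 CPM (1.87 ± 0.36, adjusted p = 0.0118). The calls of Slc25a1 and Acly were lost without cold library 3, at adjusted p-values of 0.0527 and 0.0539. Fasn, the fatty acid synthase, was among the most abundant transcripts, at 14623, 13747 and 6448 CPM at room temperature and 21687, 32017 and 35323 CPM in the cold (1.35 ± 0.33, adjusted p = 0.0308). Room temperature library 3 was low for both Acly and Fasn. The call of Fasn was lost without room temperature library 2 or 3 or cold library 2 or 3 (up to 0.123). Me1, malic enzyme, supplies reducing power for the synthase and was at 695 ± 407 and 1707 ± 253 CPM; its adjusted p of 0.0483 became 0.0718 with replicate number as a block and reached 0.155 without cold library 3, and the call held only without room temperature library 1 or mutant cold library 3. Acly, Fasn and Me1, like Elovl6, Elovl5, Scd2, Letmd1, Otop1 and Kng2, are named outside the rule given in the account of the processing, to complete a count or a pathway, and were chosen after their values were seen.

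Elongation and desaturation had 6 rises of 15 (40%, against 4.31% of all genes), with a median of 0.876, and Elovl3 was 1 of the 6. Scd2, a desaturase, rose from 95.2, 134 and 55.2 CPM to 316, 272 and 343 CPM (1.71 ± 0.27, adjusted p = 0.00445). Elovl6, which elongates palmitate, rose from 698 ± 117 to 1745 ± 169 CPM (1.32 ± 0.23, adjusted p = 0.00686). Besides the elongases, Ptplb, a dehydratase of the elongation cycle, rose from 151 ± 16.4 to 317 ± 5.66 CPM (adjusted p = 0.00153) and Hsd17b12, a ketoacyl-CoA reductase, from 293 ± 28.2 to 553 ± 33.9 CPM (adjusted p = 0.0029). These 4 calls held in all 12 fits with a library left out. Elovl5, at 92 ± 8.57 and 169 ± 6.22 CPM, was called (adjusted p = 0.0133) except without cold library 2 or 3 (up to 0.0623).

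Triglyceride assembly had 3 rises of 13 (23.1%, against 4.31% of all genes). Agpat2, which adds the second acyl chain and whose loss is known to cause lipodystrophy, rose from 880, 1247 and 823 CPM to 2466, 2361 and 2369 CPM (1.29 ± 0.18, adjusted p = 0.00231). Mogat1, a monoacylglycerol acyltransferase, rose from 9.03 ± 1.18 to 16.3 ± 1.56 CPM (0.85 ± 0.15, adjusted p = 0.00789). Both calls held in all 12 fits. Gpd1, which supplies the glycerol backbone from glycolysis, was at 8025 ± 2107 CPM at room temperature and 18021 ± 1292 CPM in the cold (1.17 ± 0.23, adjusted p = 0.0127), a call lost without room temperature library 3 or cold library 2 or 3 (up to 0.0678). Of 7 regulators, Mlxipl (adjusted p = 0.0384) and Lpin2 (adjusted p = 0.0488) were called higher, and neither was called with replicate number as a block (0.0573 and 0.0696) or without any 1 of the 6 control libraries, mutant room temperature library 2 or 3 or mutant cold library 1 (up to 0.13 and 0.213, both without cold library 2), Lpin2 also without mutant room temperature library 1 or mutant cold library 2. Mlxipl, which encodes the glucose-sensing factor ChREBP, stood at 237 ± 44 and 522 ± 64.9 CPM.

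**Figure D4:**
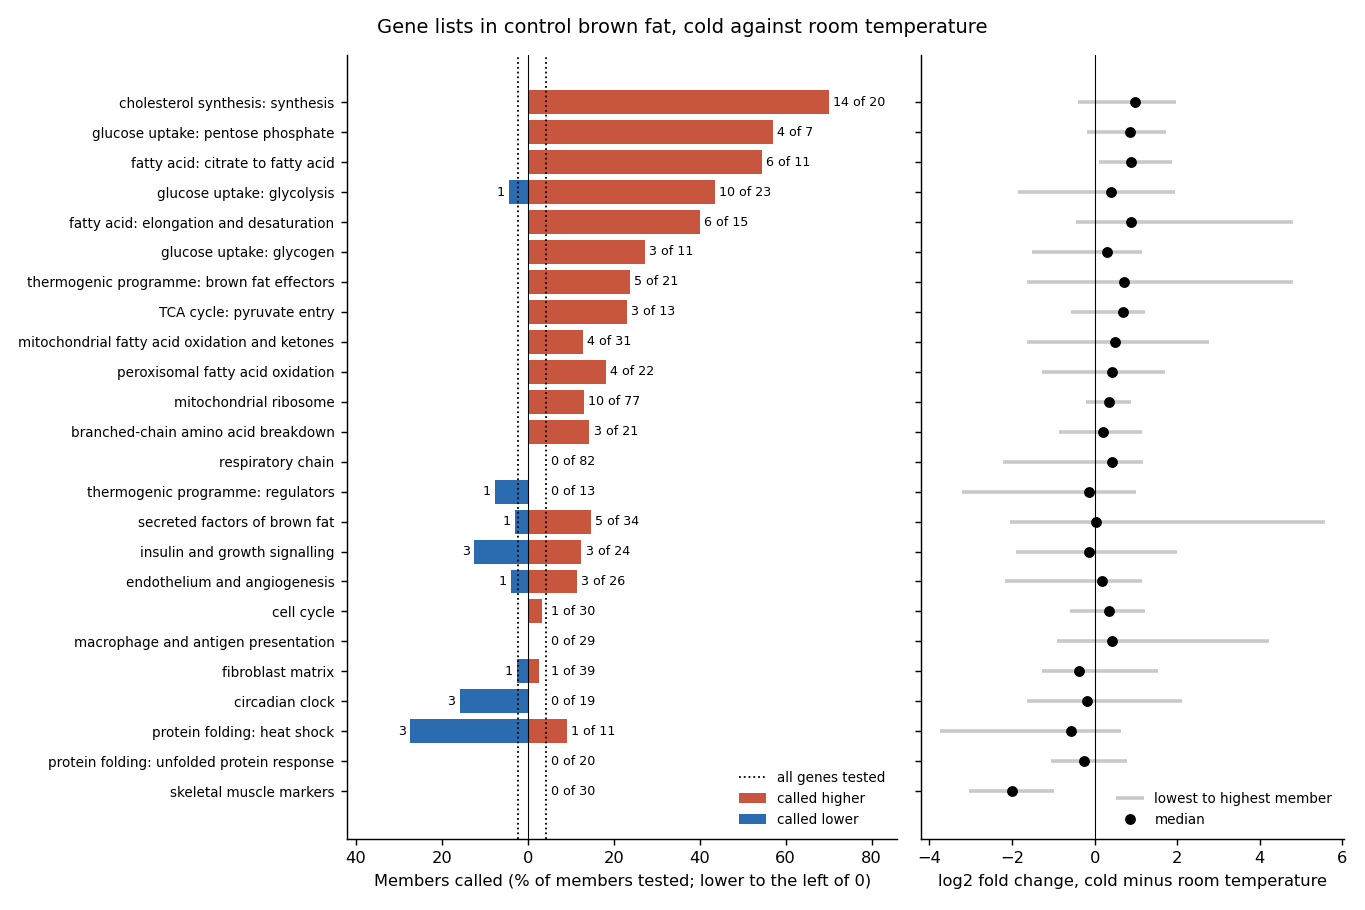
Left, for 24 gene lists or roles within them, the percent of tested members called higher (red, right of 0) and called lower (blue, left of 0), with the counts printed; dotted lines mark the 4.31% and 2.31% of all genes tested. Right, the median log2 fold change of the members (black) and the range from the lowest to the highest member (grey), from 0.982 for cholesterol synthesis to -1.99 for skeletal muscle markers, a median that turned to 6.845 without the 4 muscle-rich libraries.

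Cholesterol synthesis had the largest share of calls among the lists and roles of more than 1 gene. Of 20 synthesis genes tested, 14 rose and none fell, with a median of 0.982, and of 12 genes of sterol sensing and uptake 2 rose, against 4.31% of all genes higher and 2.31% lower. The rises of the whole list were fewest without cold library 3, at 12, and 12 members were called in all 12 fits with a library left out. The median of the whole list was 0.57, and over the libraries left without the muscle-rich ones 0.605; for the synthesis genes the latter was 0.857. Fdps, farnesyl diphosphate synthase, rose from 33.6, 37.6 and 23.9 CPM to 131, 105 and 134 CPM (1.96 ± 0.23, adjusted p = 0.00143). Sqle, squalene epoxidase, rose from 10.6, 11.4 and 8.04 CPM to 26.8, 28.2 and 35.4 CPM (1.59 ± 0.19, adjusted p = 0.00143). Of the sensing genes, Insig1, which retains the sterol sensor in the endoplasmic reticulum, rose from 234, 200 and 193 CPM to 365, 491 and 418 CPM (1.02 ± 0.16, adjusted p = 0.00399). These 3 calls held in all 12 fits. Srebf2, the transcription factor of the pathway, was not called, at 45.8 ± 9.12 and 58.1 ± 10 CPM (adjusted p = 0.206). Hmgcs1 was listed at 0 in every library and was not tested.

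Promoters of the cholesterol genes were read because so many members moved together. RefSeq promoters of 300 bases, from 250 bases before to 50 after the start, exist in the table used for 22 of the listed genes and for 11233 of the 15265 genes tested; they are on build GRCm38.p6, not the build of the counts. The CCAAT box, bound by nuclear factor Y, a partner of the sterol-regulated transcription factors, was searched on both strands as CCAAT. It stood in 19 of the 22 promoters (86.4%) against 42.2% of all, in 11 of the 12 from genes that rose and 7 of the 9 from genes tested but not called. The 4 promoters below are from synthesis genes and a sensing gene that rose, with CCAAT, or ATTGG where it lies on the other strand, in capitals.
Insig1, chr5:28071162-28071461, + strand: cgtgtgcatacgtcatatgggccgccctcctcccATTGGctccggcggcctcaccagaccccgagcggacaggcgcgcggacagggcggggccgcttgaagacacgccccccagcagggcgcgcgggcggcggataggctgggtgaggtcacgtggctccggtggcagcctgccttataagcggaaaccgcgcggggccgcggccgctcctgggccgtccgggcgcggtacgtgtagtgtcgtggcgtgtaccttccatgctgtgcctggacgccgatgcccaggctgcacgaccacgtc
Idi1, chr13:8885356-8885655, + strand: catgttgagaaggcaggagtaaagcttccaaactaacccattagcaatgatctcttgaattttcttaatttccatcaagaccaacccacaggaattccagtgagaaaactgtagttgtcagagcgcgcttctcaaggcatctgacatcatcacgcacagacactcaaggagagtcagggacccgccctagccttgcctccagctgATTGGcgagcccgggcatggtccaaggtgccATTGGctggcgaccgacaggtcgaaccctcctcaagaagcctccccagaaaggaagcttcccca
Lss, chr10:76531355-76531654, + strand: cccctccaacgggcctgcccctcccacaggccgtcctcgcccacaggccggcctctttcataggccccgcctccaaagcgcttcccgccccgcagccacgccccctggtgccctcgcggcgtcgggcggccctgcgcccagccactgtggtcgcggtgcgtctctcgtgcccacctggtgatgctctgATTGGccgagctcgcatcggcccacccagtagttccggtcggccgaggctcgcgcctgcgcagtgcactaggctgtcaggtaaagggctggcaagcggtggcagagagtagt
Nsdhl, chrX:72918271-72918570, + strand: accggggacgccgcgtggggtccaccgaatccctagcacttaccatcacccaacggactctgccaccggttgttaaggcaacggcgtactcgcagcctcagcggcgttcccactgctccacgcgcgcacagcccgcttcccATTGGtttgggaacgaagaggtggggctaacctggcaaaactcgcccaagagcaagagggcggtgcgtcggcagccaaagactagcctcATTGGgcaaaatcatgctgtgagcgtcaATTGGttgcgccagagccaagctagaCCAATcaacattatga
The capitals begin 216 bases before the start in Insig1, 45 and 14 before it in Idi1, 62 before it in Lss, and at 4 places in Nsdhl. Idi1, isopentenyl diphosphate isomerase, rose from 9.3 ± 1.42 to 18.2 ± 0.389 CPM (0.97 ± 0.17, adjusted p = 0.00746). Lss, lanosterol synthase, rose from 31.5 ± 6.79 to 63.1 ± 8.85 CPM (1.00 ± 0.17, adjusted p = 0.00753). Nsdhl, a sterol dehydrogenase, rose from 24.2, 25.3 and 19.7 CPM to 68.5, 77.8 and 77.6 CPM (1.69 ± 0.20, adjusted p = 0.00143). Their calls held in all 12 fits; Idi1, Lss and Nsdhl were chosen for their promoters after their values were seen. Of 9 motifs searched, the sterol regulatory element written as TCACNCCAC stood in 1 of the 22 promoters, that of Hmgcs1, against 1.42% of all, the E-box CACGTG in 6 of the 22 against 11.4%, and the cyclic AMP response element TGACGTCA in none of the 22 against 3.34%. A match is a description of these letters in this window, and whether any factor binds there was not tested.

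Glucose use had 19 rises and 2 falls among 48 genes (39.6% and 4.17%, against 4.31% and 2.31% of all genes). The median was 0.35 (0.469 without the muscle-rich libraries). The rises numbered 6 without cold library 3, and 6 were called in all 12 fits. Glycolysis held 10 of the rises among 23 genes, and 4 without cold library 3. Pfkp, a phosphofructokinase, rose from 80.7, 135 and 94.9 CPM to 360, 425 and 408 CPM (1.94 ± 0.20, adjusted p = 0.000711). Pfkl, the liver form of the same enzyme, rose from 674, 907 and 716 CPM to 1968, 2143 and 2292 CPM (1.48 ± 0.20, adjusted p = 0.00234). Gpi1, which makes fructose 6-phosphate, rose from 907, 863 and 657 CPM to 2188, 2145 and 2598 CPM (1.51 ± 0.22, adjusted p = 0.00284). All 3 calls held in all 12 fits. Pfkfb3, which makes the activator of phosphofructokinase, fell from 1071 ± 102 to 627 ± 89.9 CPM (adjusted p = 0.0188), a call lost without room temperature library 2 or cold library 1 or 3 (up to 0.0985).

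The pentose phosphate pathway, which supplies the reducing power of lipid synthesis, had 4 rises of 7 (57.1%, against 4.31% of all genes). Its median was 0.849, and it had 1 rise without cold library 3. Pgd, phosphogluconate dehydrogenase, rose from 512, 451 and 264 CPM to 1271, 1250 and 1519 CPM (1.72 ± 0.26, adjusted p = 0.00353), a call that held in all 12 fits. G6pdx, the first enzyme of the pathway, rose from 194 ± 50.4 to 398 ± 22 CPM (adjusted p = 0.0108), a call lost without cold library 3 (0.0557). Of 11 glycogen genes 3 rose (27.3%, against 4.31% of all genes), and 1 without room temperature library 3. Gys2, a glycogen synthase, rose from 57.6 ± 5.4 to 128 ± 10.2 CPM (1.16 ± 0.17, adjusted p = 0.00291), a call that held in all 12 fits. Of 7 genes of glucose uptake and trapping, Hk1 and Slc2a4 rose and Slc2a3 fell (28.6% and 14.3%, against 4.31% and 2.31% of all genes). Hk1, a hexokinase, was at 31.8 ± 10.8 and 82 ± 2.16 CPM (adjusted p = 0.0155), lost without room temperature library 3 or cold library 2 or 3 (up to 0.0665), and Slc2a3, the transporter GLUT3, at 5.42 ± 0.999 and 2.23 ± 0.608 CPM (adjusted p = 0.0346), lost without any room temperature library or cold library 2 or 3 (up to 0.128). Slc2a4, the insulin-responsive transporter GLUT4, was at 442 ± 37.5 and 660 ± 29.4 CPM (0.58 ± 0.14, adjusted p = 0.0284), a call lost without room temperature library 1 or 3, any 1 of the cold libraries, mutant room temperature library 2 or mutant cold library 1 (up to 0.125).

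Entry of pyruvate into mitochondria was called at the carrier. Mpc2, a subunit of the mitochondrial pyruvate carrier, rose from 448, 506 and 532 CPM to 1168, 1099 and 1202 CPM (1.22 ± 0.19, adjusted p = 0.00386), and Mpc1, its partner, from 230, 219 and 195 CPM to 430, 363 and 434 CPM (0.93 ± 0.17, adjusted p = 0.00846). Both calls held in all 12 fits. Pdhx, a subunit of pyruvate dehydrogenase, was the remaining call among 13 genes of this step and was at 123 ± 14 and 205 ± 8.79 CPM (adjusted p = 0.0395); its call was lost without room temperature library 2 or 3, any cold library, mutant room temperature library 2 or 3 or mutant cold library 1 (up to 0.139). In the tricarboxylic acid cycle with pyruvate entry, 4 of 29 genes rose (13.8%, against 4.31% of all genes) and none fell. The groups did not overlap, cold higher, for 24 of 29, against 18.9% of all genes. The rises numbered 2 without room temperature library 2 and ran up to 18 with another library left out. Idh1, the cytosolic isocitrate dehydrogenase and so no enzyme of the mitochondrial cycle itself, was the only call among the 16 genes listed for the cycle, at 192 ± 34.5 and 290 ± 10.7 CPM (adjusted p = 0.0312), lost without room temperature library 2 or 3, any cold library, mutant room temperature library 2 or 3 or mutant cold library 1 or 2 (up to 0.133), and 2 of the 4 rises held in all 12 fits, Mpc1 and Mpc2.

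Of 31 genes of mitochondrial fatty acid oxidation 4 rose (12.9%, against 4.31% of all genes) and none fell. The median was 0.497, with 26 of 31 above 0, and the groups were apart, cold higher, for 19, against 18.9% of all genes. The rises numbered 1 without cold library 2 and ran up to 13 with another library left out. Acsl5, which activates long-chain fatty acids, stood out at 179, 289 and 175 CPM at room temperature and 1389, 1346 and 1365 CPM in the cold (2.67 ± 0.25, 6.37-fold, adjusted p = 0.000376), and its call held in all 12 fits. Acsl3, Cpt2 and Hadha were the remaining calls of the list, and those of Cpt2 and Hadha were each lost without any 1 of the cold libraries (adjusted p up to 0.107 and 0.155, both without cold library 2), that of Cpt2 also without room temperature library 2 or 3 and that of Hadha without any room temperature library, any mutant room temperature library or mutant cold library 1. Acsl3, which activates fatty acids at the endoplasmic reticulum and lipid droplets, was at 28.7 ± 6.43 and 58.3 ± 8.96 CPM (adjusted p = 0.0131), lost without cold library 2 or 3 (up to 0.0719). Of 22 peroxisomal genes 4 rose (18.2%, against 4.31% of all genes) and none fell, with a median of 0.412. None of the 4 was called in all 12 fits. Acox2, Acot8, Acaa1b and Amacr had adjusted p-values between 0.016 and 0.0284, and the highest with a library left out were 0.0751, 0.0814, 0.0832 and 0.126, without cold library 2, 1, 1 and 2 in turn. Each of the 4 was also lost without at least 1 room temperature library.

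None of 82 respiratory chain genes was called in either direction, yet 76 had a log2 fold change above 0, with a median of 0.428, and in 62 the 3 cold libraries were all above the 3 at room temperature, against 18.9% of all genes tested. DESeq2 called 2 of them higher, and the count with a library left out ran from 0 to 18. Atp5b, the catalytic subunit of ATP synthase, is an example, at 5660, 5200 and 6109 CPM at room temperature and 9181, 9327 and 8961 CPM in the cold (0.69 ± 0.30, adjusted p = 0.19). Sdha, of complex II, stood at 2591 ± 166 and 3339 ± 224 CPM (adjusted p = 0.413), and Cox6a1, of complex IV, at 2766 ± 394 and 3432 ± 225 CPM (adjusted p = 0.65). Of 77 mitochondrial ribosomal proteins 10 rose (13%, against 4.31% of all genes) and none fell (median 0.358, 75 above 0). None of the 10 was called in all 12 fits, and the count ran from 0 without room temperature library 3 to 21. Mrps27, at 50.5 ± 1.54 and 89.6 ± 3.83 CPM (0.83 ± 0.17, adjusted p = 0.0142), had the smallest p among them, and its call was lost without room temperature library 3 or any cold library (up to 0.0671). Of 41 genes of mitochondrial biogenesis and dynamics 4 rose (9.76%, against 4.31% of all genes), Tomm40, Lonp1, Phb and Polrmt. None of the 4 was called in all 12 fits, and Phb was not called with replicate number as a block (adjusted p = 0.059). Their adjusted p-values ran from 0.019 to 0.0472, and those with a library left out reached 0.0899 without cold library 3, 0.158 without cold library 2, 0.172 without cold library 1 and 0.0871 without cold library 2 in turn. Mfn2, which fuses mitochondria, stood at 485 ± 72 and 529 ± 67.6 CPM (adjusted p = 0.686).

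Of 39 genes of the mitochondrial carrier family, not all of which act in the inner membrane, 5 rose (12.8%, against 4.31% of all genes) and none fell. The 5 were Slc25a1, Slc25a17, Slc25a34, Slc25a39 and Slc25a46. Slc25a39, which imports glutathione into mitochondria, rose from 284, 326 and 309 CPM to 609, 532 and 556 CPM (0.88 ± 0.13, adjusted p = 0.0032), and Slc25a17, the cofactor carrier of peroxisomes, from 104 ± 7.79 to 180 ± 12.2 CPM (0.80 ± 0.12, adjusted p = 0.00347). Slc25a34 rose from 19.6, 32.5 and 48.6 CPM to 117, 127 and 132 CPM (1.90 ± 0.36, adjusted p = 0.0128). These 3 calls held in all 12 fits, while that of Slc25a46 (adjusted p = 0.0499) became 0.0637 with replicate number as a block and 0.175 without cold library 2, and held only without mutant room temperature library 1 or mutant cold library 3. Of 21 genes of branched-chain amino acid breakdown 3 rose (14.3%, against 4.31% of all genes), Dbt, Pcca and Mcee. Dbt, of the branched-chain keto acid dehydrogenase, was at 168 ± 22.4 and 288 ± 12.8 CPM (adjusted p = 0.0104), a call lost without cold library 2 or 3 (up to 0.061); those of Pcca and Mcee were lost without any 1 of the 6 control libraries or mutant room temperature library 2, and that of Mcee without mutant cold library 1 (up to 0.121 without cold library 2 and 0.124 without cold library 1).

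In lipid release and uptake, 2 of 36 genes rose and 1 fell, or 5.56% and 2.78% against 4.31% and 2.31% of all genes. Plin2, the coat protein of small lipid droplets, rose from 730, 584 and 555 CPM to 1973, 1538 and 1664 CPM (1.47 ± 0.20, adjusted p = 0.00242). Apoe, apolipoprotein E, fell from 1091, 2469 and 2098 CPM to 605, 725 and 531 CPM (-1.60 ± 0.27, adjusted p = 0.00635). The calls of Plin2 and Apoe held in all 12 fits with a library left out.

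Of the creatine cycle, which is described as a further route to heat in fat, 2 of 8 genes rose and 1 fell. These are 25% and 12.5%, against 4.31% and 2.31% of all genes. Alpl, the alkaline phosphatase that removes phosphate from phosphocreatine in this cycle, had the second smallest p of all genes: it stood at 17.1, 18 and 15.7 CPM at room temperature and at 52.1, 64.8 and 55 CPM in the cold (1.76 ± 0.12, adjusted p = 3.36e-05), and its call held in all 12 fits. Ckb, creatine kinase B, rose from 29, 54.4 and 46 CPM to 200, 130 and 109 CPM (1.76 ± 0.35, adjusted p = 0.0149), a call lost without room temperature library 3 or cold library 1 (up to 0.0558). Slc6a8, the creatine transporter, fell from 52.3 ± 4.15 to 35.9 ± 4.46 CPM (adjusted p = 0.0491), a call lost without any 1 of the 6 control libraries, mutant room temperature library 1 or 2 or mutant cold library 1 (up to 0.155). None of 15 calcium cycling genes was called, and their median turned from -0.989 to 1.282 without the 4 muscle-rich libraries. Several of them are muscle genes: Atp2a1, the calcium pump of fast muscle, was at 3211, 1.24 and 2217 CPM at room temperature and 311, 21.2 and 1532 CPM in the cold, in the order of the muscle marker shares of 3.5%, 0.013% and 2.47% and then 0.294%, 0.027% and 1.13%. The part of muscle RNA in these values was not tested.

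Over the called genes of at least 1 CPM on average, and leaving out unnamed gene models and muscle, lens and epithelial markers, the largest rises were those of Bmp8b, Rspo4, Elovl3, Cpne5, Acot12 and Ttc25. Cpne5, a calcium-dependent membrane-binding protein, was at 0.74, 0.182 and 0.366 CPM at room temperature and 6.75, 18.2 and 8.31 CPM in the cold (4.64 ± 0.71, adjusted p = 0.00582). Acot12, an acetyl-CoA hydrolase, rose from 0.271 ± 0.113 to 5.97 ± 3.08 CPM (4.42 ± 0.71, adjusted p = 0.00513). Ttc25, known from motile cilia, rose from 6.64, 5.7 and 3.2 CPM to 78.9, 85.8 and 128 CPM (4.24 ± 0.52, adjusted p = 0.00213). Hcn2, a channel opened by hyperpolarisation and modulated by cyclic AMP, rose from 1.7, 3.89 and 3.26 CPM to 49, 40 and 40.9 CPM (3.88 ± 0.34, adjusted p = 0.000265). Slco4a1, Adcy10, Arhgef19 and Tesc rose by 3.33, 3.33, 3.24 and 3.13 on the log2 scale. Adcy10 encodes the soluble adenylyl cyclase, which makes cyclic AMP without a receptor, and went from 2.49 ± 1.08 to 25 ± 6.55 CPM. Cpne5, Acot12, Ttc25, Hcn2, Slco4a1, Adcy10, Arhgef19 and Tesc kept their call in all 12 fits, and Rspo4 (adjusted p = 0.0449) and Tacr2, a neurokinin receptor (adjusted p = 0.0185), did not. Rspo4, a Wnt pathway agonist at 0.164 ± 0.145 and 6.85 ± 1.69 CPM, was not called with replicate number as a block (0.0509) or without any 1 of the 6 control or the 3 mutant room temperature libraries (up to 0.126). Tacr2 lost its call without room temperature library 2 or 3 or cold library 1 or 2 (up to 0.0724).

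Among called genes, with muscle, lens and epithelial markers left out as well, the largest falls were those of Fras1, Nr4a3, Hspa1b, Zbtb16, Hspa1a and Fkbp5. Fkbp5, a chaperone of steroid receptors induced by glucocorticoids, fell from 88.3, 49.8 and 65.7 CPM to 8.19, 8.79 and 11.8 CPM (-2.83 ± 0.46, adjusted p = 0.00756). Mycl, of the Myc family, fell from 10.7, 15.5 and 23.5 CPM to 1.03, 3.82 and 3.12 CPM (-2.64 ± 0.49, adjusted p = 0.0106). Slc16a7, a carrier of pyruvate and lactate, fell from 12.9, 34.4 and 19.7 CPM to 3.2, 3.75 and 4.88 CPM (-2.50 ± 0.34, adjusted p = 0.00231). Svep1, a large matrix protein, fell from 142, 132 and 145 CPM to 24.4, 30.7 and 28.7 CPM (-2.32 ± 0.28, adjusted p = 0.00147). The calls of Fkbp5, Mycl, Slc16a7 and Svep1 held in all 12 fits. Car3, carbonic anhydrase 3, was the most abundant gene among these, at 7054, 7945 and 6700 CPM and then 917, 1753 and 1225 CPM (-2.48 ± 0.54, adjusted p = 0.0229), a call lost without room temperature library 2 or 3 or any 1 of the cold libraries (up to 0.092). Fras1, a matrix protein at 3.64 ± 3.59 and 0.102 ± 0.176 CPM, had no counts in 2 of the cold libraries (adjusted p = 0.0285), and its call was lost without room temperature library 2 or 3 or cold library 1 or 2 (up to 0.102). Ripk4, a kinase at 5.15 ± 3.35 and 0.964 ± 0.272 CPM (adjusted p = 0.0224), lost its call without room temperature library 1 or any 1 of the cold libraries (up to 0.0945).

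A further 6 genes were chosen, after their values were seen, from the 20 with the smallest p. Atl2, which fuses tubules of the endoplasmic reticulum, fell from 223, 265 and 274 CPM to 86.3, 80.6 and 82.7 CPM (-1.61 ± 0.13, adjusted p = 0.000124). Aqp1, a water channel, fell from 447, 578 and 532 CPM to 149, 139 and 167 CPM (-1.78 ± 0.20, adjusted p = 0.000988). Isyna1, which makes inositol phosphate, rose from 12.7, 9.95 and 8.96 CPM to 79.2, 67.6 and 77.8 CPM (2.83 ± 0.23, adjusted p = 0.000124). Bsg, basigin, a partner of monocarboxylate carriers, rose from 508, 615 and 545 CPM to 1679, 1598 and 1686 CPM (1.57 ± 0.15, adjusted p = 0.000452). Aspg, an asparaginase, rose from 101 ± 21.4 to 620 ± 15.6 CPM (adjusted p = 0.000988), and Cend1 from 1.72 ± 0.544 to 14.4 ± 1.69 CPM (adjusted p = 0.000124). All 6 calls held in all 12 fits.

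Among 11 heat shock genes 3 fell and 1 rose (27.3% and 9.09%, against 2.31% and 4.31% of all genes), with a median of -0.574 and 1 of 11 above 0. Hspa1b was at 16.8, 96.6 and 128 CPM at room temperature and 2.34, 5.79 and 10.1 CPM in the cold (-3.73 ± 0.92, adjusted p = 0.0475), and Hspa1a at 13.4, 52.7 and 66.4 CPM and then 2.48, 3.75 and 8.31 CPM (-3.19 ± 0.68, adjusted p = 0.0254). Both encode inducible Hsp70 and are nearly identical, so their reads may have been shared. Hsph1, a co-chaperone, was the third, at 57.7, 164 and 315 CPM and 38.7, 54.9 and 47.7 CPM (adjusted p = 0.0479). Room temperature library 1 was the lowest of its group for all 3. None of these calls held in all 12 fits: without cold library 2 the adjusted p was 0.156 for Hspa1b and 0.107 for Hspa1a, without cold library 1 it was 0.151 for Hsph1, and with replicate number as a block it was 0.0528 for Hspa1b and 0.0726 for Hsph1. The riser was Cirbp, the cold-inducible RNA-binding protein, from 25.7, 17 and 19.2 CPM to 32.7, 30.2 and 33.6 CPM (0.64 ± 0.17, adjusted p = 0.0436), a call that was lost without room temperature library 2 or 3 or any 1 of the cold libraries, mutant room temperature library 1 or 2 or mutant cold library 1 or 2 (up to 0.141).

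Of 20 genes of the unfolded protein response none was called, with a median of -0.245 (1 higher and 3 lower by DESeq2). Hspa5, the chaperone BiP, stood at 327, 586 and 450 CPM and then at 284, 292 and 294 CPM (-0.65 ± 0.19, adjusted p = 0.0677). Of 16 genes of the integrated stress response 2 rose and 1 fell (12.5% and 6.25%, against 4.31% and 2.31% of all genes). Atf5, a factor of the mitochondrial stress response, rose from 195, 252 and 187 CPM to 528, 441 and 449 CPM (1.16 ± 0.17, adjusted p = 0.00347). Trib3, a pseudokinase that restrains Akt, rose from 6.77, 6.18 and 5.64 CPM to 28.5, 15.9 and 29.3 CPM (1.99 ± 0.36, adjusted p = 0.01). Phgdh, the first enzyme of serine synthesis, fell from 41.7, 44.1 and 31.8 CPM to 11.5, 20 and 11.6 CPM (-1.45 ± 0.26, adjusted p = 0.00806). All 3 held in all 12 fits.

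Insulin and growth signalling had 3 rises, Mtor, Trib3 and Igfbp3, and 3 falls, Foxo1, Foxo3 and Pik3r1, among 24 genes. That is 12.5% each way, against 4.31% and 2.31% of all genes. Foxo1, the transcription factor that insulin keeps out of the nucleus, fell from 163, 284 and 193 CPM to 51.7, 55.7 and 63.4 CPM (-1.91 ± 0.30, adjusted p = 0.00513). Mtor, the growth kinase, rose from 177, 193 and 140 CPM to 312, 337 and 356 CPM (0.98 ± 0.14, adjusted p = 0.00319). Both held in all 12 fits. Foxo3, at 12 ± 3.9 and 3.98 ± 0.848 CPM (adjusted p = 0.0383), and Pik3r1, a regulatory subunit of phosphoinositide 3-kinase, at 198 ± 45.2 and 81.2 ± 33.4 CPM (adjusted p = 0.0384), did not: without cold library 2 the adjusted p was 0.135 for Foxo3, and without room temperature library 3 it was 0.127 for Pik3r1. Igfbp3 (adjusted p = 0.0154) lost its call without room temperature library 2 or cold library 1 or 2 (up to 0.0605).

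Of 19 clock genes 3 fell (15.8%, against 2.31% of all genes) and none rose. Nfil3, a repressor of clock outputs, fell from 22, 37.8 and 49.2 CPM to 15.7, 9.55 and 9.68 CPM (-1.64 ± 0.30, adjusted p = 0.0103), held in all 12 fits. Per2, of the core loop, was at 65.1, 52.8 and 90.6 CPM and then 15.9, 21.9 and 32.9 CPM (-1.56 ± 0.41, adjusted p = 0.0479), a call lost with replicate number as a block (0.056) and without any 1 of the 6 control libraries, mutant room temperature library 1 or 2 or mutant cold library 3 (up to 0.15). Hlf, a clock output, at 51.1 ± 8.5 and 30.9 ± 5.22 CPM (adjusted p = 0.0388), was also lost without any 1 of the 6 control libraries, mutant room temperature library 1 or mutant cold library 1 or 2 (up to 0.142). The hour at which tissue was taken is not given in the labels, and its part in these values was not tested. Of 17 immediate early genes 1 rose (5.88%, against 4.31% of all genes) and none fell. It was Fosl2, from 21.4 ± 0.764 to 30.1 ± 2.29 CPM (adjusted p = 0.0284), lost without any 1 of the 6 control libraries or mutant cold library 1 (up to 0.139).

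In the adipocyte identity list of 21 genes, Ebf3 rose and Adipoq and Tle3 fell (4.76% and 9.52%, against 4.31% and 2.31% of all genes). Ebf3, a relative of Ebf2, was at 45.3, 47 and 39.5 CPM and then 67.8, 77.9 and 69.8 CPM (0.71 ± 0.14, adjusted p = 0.0124), a call lost without room temperature library 3 or cold library 2 or 3 (up to 0.0835). Tle3, a corepressor known to oppose the brown programme, fell from 92.3 ± 20.4 to 54.6 ± 9.62 CPM (adjusted p = 0.0342), lost without room temperature library 1 or 2, any 1 of the cold libraries or mutant room temperature library 2 (up to 0.128). Of 12 genes enriched in white fat 1 fell (8.33%, against 2.31% of all genes). It was Nnat, from 80.6 ± 10 to 27.2 ± 12.1 CPM (adjusted p = 0.0296), lost without room temperature library 2 or 3 or cold library 2 or 3 (up to 0.108).

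Of 26 endothelial and angiogenic genes 3 rose and 1 fell (11.5% and 3.85%, against 4.31% and 2.31% of all genes). Summed, the list made up 0.186% to 0.241% of counts in the room temperature libraries. The cold libraries had 0.265% to 0.281%, without overlap. Vegfa, an angiogenic factor that was not called, had the most counts of the list in every control library. It had 17808, 11346 and 20354 counts in room temperature libraries 1, 2 and 3. Cold libraries 1, 2 and 3 had 28308, 32459 and 24625. The summed share without Vegfa was not computed, and the share with it is not read here as a measure of endothelium. Eng, endoglin, rose from 101, 98.7 and 118 CPM to 198, 196 and 203 CPM (0.91 ± 0.13, adjusted p = 0.00303), and Angpt1, a ligand that stabilises vessels, fell from 18.8, 30.4 and 17.2 CPM to 4.72, 5.63 and 4.5 CPM (-2.16 ± 0.29, adjusted p = 0.00217), both held in all 12 fits. Emcn, a sialomucin of veins and capillaries (adjusted p = 0.0316), was called higher except without room temperature library 1 or 2 or any 1 of the cold libraries (up to 0.114). Cldn5, a tight junction protein (adjusted p = 0.0488), was called higher except without room temperature library 2 or 3, any 1 of the cold libraries, any 1 of the mutant room temperature libraries or mutant cold library 1 (up to 0.164). Of 30 cell cycle genes 1 rose (3.33%, against 4.31% of all genes) and none fell. It was Ccnd1, cyclin D1, from 31.2, 22.8 and 22.7 CPM to 49.5, 49.7 and 78.6 CPM (1.21 ± 0.22, adjusted p = 0.00912), held in all 12 fits.

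Of 39 fibroblast and matrix genes 1 rose and 1 fell (2.56% each way, against 4.31% and 2.31% of all genes), with a median of -0.378. Loxl1, which crosslinks elastin, was at 43.7 ± 2.54 and 87.3 ± 5.58 CPM (adjusted p = 0.0419) and Col12a1, a collagen, at 22.7 ± 3.62 and 9.49 ± 1.53 CPM (adjusted p = 0.0467). Both were lost without any 1 of the 6 control libraries or mutant cold library 1 (up to 0.133 without room temperature library 3 and 0.152 without cold library 3), Loxl1 also without mutant cold library 2, and Col12a1 without any 1 of the mutant room temperature libraries and with replicate number as a block (0.0673). Gsn, gelsolin, the most abundant of the preadipocyte markers, stood at 1288 ± 196 and 914 ± 171 CPM (adjusted p = 0.19). None of 29 genes of macrophages and antigen presentation was called (median 0.424), with 0.0446% to 0.0861% of counts at room temperature and 0.0382% to 0.105% in the cold; Cd74, their most abundant member, stood at 114 ± 38.5 and 115 ± 58.7 CPM. Of 24 interferon-stimulated genes 2 rose and 1 fell (8.33% and 4.17%, against 4.31% and 2.31% of all genes). Dhx58 (adjusted p = 0.0252) and Irf7 (0.0284) rose and Gbp2 (0.0259) fell, and none of these was called in all 12 fits: the highest adjusted p was 0.104 and 0.128 without cold library 2, and 0.0986 without cold library 3. None was called among 15 lymphocyte and granulocyte genes, among them Cd4 at 1.66 ± 0.186 and 1.37 ± 0.728 CPM. Nor was any called among 15 Schwann cell and neuron genes, among them Pmp22 at 95.5 ± 46 and 82.6 ± 17 CPM. The same held for 8 red blood cell genes, led by Hbb-b1 at 882 ± 541 and 873 ± 374 CPM, for 23 lens genes, led by Cryab at 154 ± 97.9 and 53.3 ± 29.7 CPM, and for 12 epithelial genes, led by Krt8 at 7.75 ± 1.87 and 3.52 ± 2.16 CPM. In DESeq2, 1 lymphocyte and granulocyte gene, 1 macrophage gene and 3 lens genes were called, and no Schwann cell, neuron, red blood cell or epithelial gene.

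Skeletal muscle markers were lower in the cold on average without any call. All 30 had a log2 fold change below 0, with a median of -1.99, and in none did the groups separate. Without the 4 muscle-rich libraries the median turned to 6.845. Myh4, the myosin of fast fibres, stood at 4080, 0.145 and 3837 CPM at room temperature and at 458, 22 and 2215 CPM in the cold (-1.55 ± 3.26, adjusted p = 0.811). Libraries rich and poor in muscle transcripts were in both groups. All 146 called genes chosen for naming kept their sign without the 4 richest libraries. The groups of called genes did not overlap to begin with, so fewer libraries could hardly reverse a sign. The sign therefore says nothing about the part of muscle RNA, which was not tested.

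The libraries at room temperature varied more than those in the cold. The SD of log2 CPM had a median over genes of 0.27 at room temperature and 0.174 in the cold, and it was larger at room temperature for 10202 of 15265 genes (66.8%). In the mutants the order was the other way, with 0.237 at room temperature and 0.295 in the cold. These are descriptions of 3 libraries a group.

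The same week in the cold was also applied to mice lacking Ebf2 in adipocytes, and no library is shared between the 2 comparisons. In the mutants 2663 genes were called (17.4%), 1531 higher (10%) and 1132 lower (7.42%). Of the 658 genes called higher in controls, 611 had the same sign in mutants, 444 were called higher there and 5 were called lower; their median log2 fold change was 0.899 in controls and 0.799 in mutants. Of the 352 called lower in controls, 327 had the same sign in mutants, 172 were called lower and 2 higher, with medians of -0.832 and -0.542. The genes were chosen by their change in controls, so these medians do not compare the genotypes. Across all 15265 genes, which are not independent replicates, the log2 fold changes of the 2 genotypes had a Pearson r of 0.525 and a Spearman rho of 0.527.

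The difference between the 2 responses, tested as the interaction of temperature and genotype, was called for 73 genes (0.478%), of which 21 were among the 658 and 3 among the 352. Lens markers made up 14 of the 73. Over all 23 lens markers tested the median log2 fold change was 6.94 in mutants and -0.652 in controls. None of the 23 was called in controls. Insig1, which rose in control fat (1.02 ± 0.16), fell in mutant fat (-0.70 ± 0.16), where it was already at 674 ± 82.5 CPM at room temperature against 209 ± 22 CPM in controls (difference of 1.72 ± 0.22, adjusted p = 0.00762). Sik1, which rose in controls, stood at 99.4 ± 12.4 and 74 ± 14.3 CPM in mutants (difference of 1.86 ± 0.25, adjusted p = 0.0103). Fam131c rose in both, from 2.74 ± 0.903 to 20.2 ± 4.91 CPM in controls and from 0.199 ± 0.0664 to 19.7 ± 4.33 CPM in mutants, and the difference of -3.70 ± 0.44 was called (adjusted p = 0.00531). The calls for Insig1, Sik1 and Fam131c held in all 12 fits with a library left out. In cholesterol synthesis, mutants had 5 rises and 3 falls of 20 with a median of 0.123. In the list for the steps from citrate to fatty acid they had 1 rise and 3 falls of 11, with a median of -0.15. The respiratory chain had 20 rises and no fall of 82 in mutants, with a median of 0.636. Over all genes tested, 10% were called higher and 7.42% lower in mutants, against 4.31% and 2.31% in controls. Among the members of these lists the interaction was called for 2, 2 and none in turn.

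**Figure D5:**
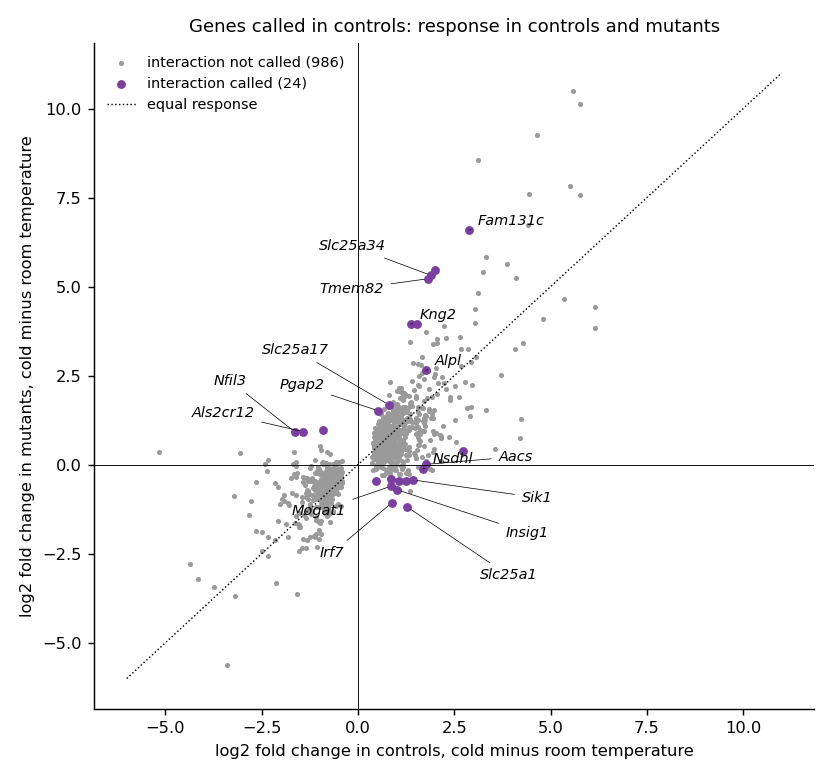
Log2 fold change, cold minus room temperature, in mutants (vertical axis) against that in controls (horizontal axis) for the 1010 genes called in controls, with 1 point per gene and a dotted line of equal response. Purple points are the 24 genes whose difference between genotypes was also called, among them Insig1 and Slc25a1 below 0 in mutants and Fam131c above the line.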

How the data were processed

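RNA was measured by sequencing in 12 libraries of mouse brown adipose tissue, 3 in each of 4 groups (control or mutant, room temperature or 4 degrees). Per the labels' protocols, TRIzol and column purification gave the RNA, and libraries were made with a NEBNext Ultra kit. Per the submitters' processing notes, reads were processed with STAR and featureCounts on build mm9, and the authors deposited raw counts per gene symbol; versions, annotation and the treatment of strand and of reads with several positions were not given in the sources used here. Library totals ran from 25835650 to 37927038 counts.

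Groups were taken from the labels. From the counts, edgeR 4.0.16 in R 4.3.3 was run over all 12 libraries with 1 coefficient per group, TMM factors, its filter on low counts (minimum 10, total 15) and a robust quasi-likelihood fit, two-sided, with Benjamini-Hochberg adjustment over the 15265 genes kept. The interaction is the control minus the mutant log2 fold change in the same fit. SEs are those implied by the F statistic. The code was tested on simulated data. DESeq2 1.42.0, limma 3.58.1, other filters and size factors, a replicate block, the 6 control libraries alone, and leaving out libraries were the alternatives; the block with the 6 control libraries was chosen after seeing the data.

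Genes were named by a rule: 13 genes of brown fat always; the 12 called genes with the largest change in each direction at a mean of at least 1 CPM, without overlap and without unnamed gene models or muscle, lens and epithelial markers; up to 3 called members with the smallest p in each direction for each role of 34 gene lists, or the most abundant where none was called; and up to 5 genes per sign for the interaction. Members and lists were chosen with earlier results of these data known, and lists are described by counts and medians, with no test. A few of the genes so chosen are left out of the text.

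The labels give the same replicate numbers in each group. Deviations of same-numbered control libraries from their group means had correlations of 0.142, 0.647 and 0.456 when log2 CPM was computed with prior count 1, so the numbers were taken to pair the samples, although the first was 0.06 on log2(CPM + 1) and room temperature library 1 correlated more with cold library 3 (0.471) than with its own number. The reported fit has no block, so its p-values leave this pairing out. The value with the block is given where it changes a call. Nothing in the labels says what a number marks.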

Additional observations from a re-analysis of the deposited data

Results flagged for a closer look

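The cold response differed between control and mutant fat, by the interaction term of edgeR's quasi-likelihood test adjusted over all genes, for 16 of the genes named or chosen for naming. Each difference below is the control minus the mutant log2 fold change, and each had the same sign in all 21 settings in which it was computed. The genes were picked because this difference was called in the same libraries, so the settings could hardly reverse its sign. The shared sign is therefore no support.

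The difference was positive for 5 genes of lipid and sterol synthesis, which were picked by this test and do not stand for their lists. It was 1.724 for Insig1, 1.807 for Nsdhl, 1.764 for Aacs, 2.478 for Slc25a1 and 1.456 for Mogat1. In mutants Nsdhl stood at 78 ± 12.1 CPM at room temperature and 72 ± 20.6 CPM in the cold, Aacs at 495 ± 20.2 and 500 ± 119 CPM, and Mogat1 at 29.8 ± 4.04 and 19.6 ± 2.08 CPM. Slc25a1 fell in mutants from 1914 ± 391 to 839 ± 258 CPM. The difference was also positive for Sik1, at 1.863, and for Irf7, an interferon regulatory factor, at 1.948.

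The remaining differences were negative. Fam131c, at -3.704, Slc25a34, at -3.418, Tmem82, at -3.406, Kng2, at -2.58, Pgap2, at -0.982, Slc25a17, at -0.891, and Alpl, at -0.888, were called higher in the cold in both genotypes, with the larger log2 fold change in mutants. Slc25a34 went from 5.6 ± 2.91 to 223 ± 42 CPM in mutants, and Kng2 from 9.45 ± 3.86 to 146 ± 26.5 CPM. Nfil3, at -2.57, and Als2cr12, at -2.348, were called lower in controls and had log2 fold changes of 0.93 and 0.93 in mutants, where Als2cr12 was called higher (adjusted p = 0.0189) and Nfil3 was not called (0.0527).

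With each of the 12 libraries left out in turn, the difference was called every time for Insig1, Sik1 and Fam131c. It was called in 10 of 12 fits for Slc25a1 and Mogat1, in 9 for Als2cr12, in 8 for Irf7, in 6 for Nsdhl, in 5 for Slc25a34, in 4 for Aacs and Nfil3, in 3 for Pgap2 and Tmem82, and in 2 for Alpl, Kng2 and Slc25a17. With replicate number as a block the adjusted p was over 0.05 for Aacs (0.0551), Alpl (0.0621), Kng2 (0.0582), Nfil3 (0.0554), Pgap2 (0.0551), Slc25a17 (0.0766) and Tmem82 (0.0551).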

How the results depend on the processing

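Counts of calls depended on the tool and on single libraries. DESeq2 called 2018 genes, 1100 higher and 918 lower, with 452 for the interaction, and limma-voom with quality weights 3402, 1928, 1474 and 1121. With 1 library left out, the calls ran from 313 to 1795, those higher from 224 to 1127, those lower from 89 to 668, and those for the interaction from 13 to 204. Without the 4 muscle-rich libraries they were 13, 5, 8 and 26, with 1 control library left at room temperature that was assumed to vary like the rest. The interaction was called for 48 genes with a non-robust fit. With replicate number as a block it was called for 34 genes, and the cold response for 1014, of which 877 were among the 1010. RLE size factors, no filter, a stricter filter and the 6 control libraries alone gave 974, 836, 1086 and 1184 calls.

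None of the 146 called genes chosen for naming changed sign. Their groups did not overlap, so leaving out libraries could hardly change it. The other called genes were not checked for this. Among genes that were not called, Cd74 was -0.013 with RLE and with DESeq2, -0.117 with voom, -0.017 with no filter, -0.003 with the stricter filter, -0.027 with the 6 control libraries, -0.059 with the block, -0.091 with both, and -0.493 to 0.313 with a library left out. Hbb-b1 was 0.626 with voom, 0.052 with the block, 0.037 with the block and 6 libraries, and -0.435 to 0.594 with a library left out. With voom Ebf2 was 0.252 and Pparg -0.01. With a library left out Ebf2 ran from -0.297 to 0.193, Pparg from -0.032 to 0.164, Cidea from -0.365 to 0.124, Pmp22 from -0.521 to 0.186, and Cd4 from -0.741 to 0.031. Without the 4 muscle-rich libraries Atp2a1 was 7.068, Myh4 10.655, Mfn2 -0.166 and Pmp22 0.572. The cause was not tested for any of these. Depth gave 3 counts a level of 0.0764 to 0.114 CPM, below which levels were not resolved.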
